A study of Homo sapiens with 12 samples.

Results

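A set of 38 genes of the FGF, PDGF, VEGF, IGF, neuregulin and EGF receptor, HGF and KIT systems were followed in cells that had been directed toward cardiomyocytes with or without passaging. The members were matched by gene symbol, and they were chosen with earlier results of these data known. All 38 were found among the 61806 genes of the table: 18 ligands, 13 receptors and 7 IGF binding proteins. The cells were derived from H1, one line of human embryonic stem cells with a wild type genotype. NP-IWP2 cells stayed in the same wells and were treated with IWP2, an inhibitor of WNT secretion. P-DF cells (named Pass-ctrl in the labels) were passaged on Day 2 and kept without IWP2, while the cells named P-IWP2 received IWP2 after the same passage. RNA was collected on Day 12 and Day 16, with 2 libraries for each treatment and day and 12 in all. All groups were first brought to mesendoderm with the WNT activator CHIR99021 and then given insulin in DF medium. P-IWP2 differed from NP-IWP2 by passaging, whereas P-DF differed from NP-IWP2 by passaging and by the absence of IWP2, which cannot be told apart in that comparison. By the study's text, passaging was combined with the ROCK inhibitor Y27632, and the labels do not say whether static cells received it, so the inhibitor and passaging cannot be told apart. Nothing states that the libraries of a group came from separate cultures, so p-values measure the spread between these libraries only.

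Each library held between 14885589 and 19176239 reads counted on genes. The counts were tested with edgeR's quasi-likelihood method over 19505 genes, and a gene was called at a Benjamini-Hochberg adjusted p under 0.05. Of the 38 members, 35 passed the filter on low counts. FGF19, IGF1 and IGFBP1 did not, with at most 4, 9 and 3 counts in any library. Levels are given as FPKM (counts divided by exon length and library total), listed within a group as replicates 1 and 2 for NP-IWP2, 3 and 4 for P-DF and 5 and 6 for P-IWP2. Differences are given as log2 fold changes ± standard error. A lower level of a gene in such bulk samples can mean fewer cells of a type or less RNA per cell, which cannot be told apart.

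The labels call the cells embryonic stem cells, but 4 pluripotency markers summed to at most 18.7 FPKM in any library, and 8 cardiomyocyte markers to between 2233 and 7757 FPKM. On Day 12 the cardiomyocyte sum was 5454 and 4795 FPKM in NP-IWP2, 5136 and 5238 in P-DF and 2233 and 4943 in P-IWP2. On Day 16 it was 3269 and 2793 FPKM in NP-IWP2, 5690.0 and 5329 in P-DF and 7355 and 7757 in P-IWP2. Marker sums of some other cell types were lower in passaged cells, and those of others overlapped. On Day 16, the 7 fibroblast markers summed to 1380.0 and 1362 FPKM in NP-IWP2, against 25.1 and 21.3 in P-DF and 31.9 and 36.0 in P-IWP2. The 8 hepatic markers summed to 879.9 and 720.2, 14.2 and 14.9 and 20.1 and 16.2 FPKM in the same order, and the 7 epicardial markers to 58.5 and 80.0, 1.19 and 1.30 and 0.43 and 0.63. The 7 endothelial markers (1 called lower in P-DF and 0 in P-IWP2 on Day 16) summed to 4.76 and 4.71 FPKM in NP-IWP2 and between 1.41 and 2.25 in the passaged libraries. The 4 smooth muscle markers overlapped, at 432.8 and 206.5 FPKM in NP-IWP2, 337.5 and 229.3 in P-DF and 294.7 and 895.3 in P-IWP2 on Day 16. The 7 endoderm or epithelial markers were at 342.1 and 276.4 in NP-IWP2, 167.5 and 147.7 in P-DF and 223.8 and 334.0 in P-IWP2. None of these marker genes was at 0 in every library. One library stood apart from its group: the Day 12 library labelled P-IWP2 replicate 5 had fibroblast markers at 738.8 FPKM against 37.7 in replicate 6, epicardial markers at 120.6 against 0.83 and cardiomyocyte markers at 2233 against 4943. The part of these marker differences in the results below was not tested.

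Growth factors of these families are secreted or membrane-bound proteins that bind receptors with an intracellular tyrosine kinase. Binding brings receptor chains together, they phosphorylate each other, and the signal runs through RAS and ERK and through PI3K and AKT to growth, survival and migration. In the heart, FGF and IGF ligands support the growth of cardiomyocytes, PDGF receptors mark fibroblasts and mural cells, VEGF ligands guide blood and lymph vessels, and neuregulin from the endocardium signals to ERBB2 and ERBB4 of cardiomyocytes. IGF binding proteins hold IGF outside the cell and set how much of it reaches IGF1R.

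The promoters of 4 genes are shown because the gene behind each differed between passaged and static cells on Day 16: FGF1, which was higher in passaged cells, and FGFR3, PDGFRB and HGF, which were lower. Each is the 250 bases before a RefSeq transcription start (build GRCh38.p14), printed 5′ to 3′ on the strand of the gene, with matches to the searched motifs in capitals.
FGF1, chr5:142698071-142698320, minus strand: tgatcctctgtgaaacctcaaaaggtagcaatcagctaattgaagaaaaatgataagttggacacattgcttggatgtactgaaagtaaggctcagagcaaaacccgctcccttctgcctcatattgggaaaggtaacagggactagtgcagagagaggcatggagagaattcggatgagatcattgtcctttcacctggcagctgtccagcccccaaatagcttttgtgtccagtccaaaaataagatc
FGFR3, chr4:1793043-1793292, plus strand: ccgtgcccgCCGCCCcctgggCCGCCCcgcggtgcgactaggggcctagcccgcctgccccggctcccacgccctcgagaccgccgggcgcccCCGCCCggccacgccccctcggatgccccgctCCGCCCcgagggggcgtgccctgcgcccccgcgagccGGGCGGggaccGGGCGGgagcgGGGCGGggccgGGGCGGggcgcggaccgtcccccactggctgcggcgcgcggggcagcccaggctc
PDGFRB, chr5:150155846-150156095, minus strand: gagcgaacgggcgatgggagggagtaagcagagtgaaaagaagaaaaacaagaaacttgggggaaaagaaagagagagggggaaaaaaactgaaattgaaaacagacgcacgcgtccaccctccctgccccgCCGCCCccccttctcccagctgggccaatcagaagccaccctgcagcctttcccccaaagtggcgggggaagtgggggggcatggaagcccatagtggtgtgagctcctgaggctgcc
HGF, chr7:81770048-81770297, minus strand: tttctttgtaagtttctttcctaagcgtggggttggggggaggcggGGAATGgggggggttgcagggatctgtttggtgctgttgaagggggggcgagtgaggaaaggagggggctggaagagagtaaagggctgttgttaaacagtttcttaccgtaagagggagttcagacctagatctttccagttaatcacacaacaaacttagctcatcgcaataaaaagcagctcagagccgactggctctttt
Each motif was searched on both strands. The TATA box was searched as TATAAA. The motif of GATA factors was searched as AGATAA only, and other forms of that motif were not searched. That of TEAD factors was searched as CATTCC, and that of SP factors as GGGCGG. The FGFR3 promoter was 86.8% G or C and held 8 matches to GGGCGG. The PDGFRB promoter held 1 match to GGGCGG, the HGF promoter 1 match to CATTCC, and the FGF1 promoter none of these 4 exact strings of letters. That does not show that FGF1 lacks other forms of these motifs. Among the first listed promoters of 27305 genes, 42.3% held GGGCGG, 11.9% CATTCC, 11.1% TATAAA and 9.37% AGATAA. Of the 38 members, 27 had a promoter in that RefSeq table, and 20 of these held GGGCGG, 3 CATTCC, 2 TATAAA and none AGATAA. The starts of FGF1 and FGFR3 were those of the count table, while those of PDGFRB and HGF lay 27 and 391 bases from it. RefSeq lists 4 starts for FGF1, and gene counts cannot show which was used. A match describes the letters and is not evidence of binding.

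More members were lower than higher in passaged cells. On Day 16, P-DF cells had 2 members higher and 11 lower than NP-IWP2 cells, or 13 of the 35 tested, where 15.3% of all genes were called (5.39% higher and 9.86% lower). P-IWP2 cells had 3 higher and 12 lower on Day 16, or 15 of 35, where 17.1% of all genes were called (7.15% higher and 9.95% lower). On Day 12, 1 member was higher and 6 were lower in P-DF, with 4.01% of all genes called (0.697% higher and 3.32% lower), and 1 was higher and 4 lower in P-IWP2, with 1.66% of all genes called (0.328% higher and 1.33% lower). The median log2 fold change of the members on Day 16 was -0.76 in P-DF, with -0.89 in P-IWP2, against -0.02 and -0.03 over all genes tested. Both comparisons use the same NP-IWP2 libraries. Over all 10 comparisons, 21 members were called at least once and 14 never. The matching share over all genes was not computed, so these counts have no background to be set against. Of the 67 calls, 11 held without any 1 library and under every other setting tried.

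The number of calls depended on the Day 12 P-IWP2 pair, whose spread entered the shared model. Replicates 5 and 6 of that group differed by over 1 on a log2 scale (FPKM + 0.1) in 21 of the 38 members, against 0 or 1 members in the other 5 groups. Without replicate 5, 24 members were called on Day 16 in P-DF (7 higher and 17 lower, 32.4% of all genes, 14.4% higher and 18.1% lower) and 23 in P-IWP2 (5 and 18, 34.8%, 16.3% higher and 18.5% lower). The Day 12 counts without it were 22 in P-DF (4 and 18, 21.9%, 8.25% higher and 13.6% lower) and 19 in P-IWP2 (5 and 14, 15.0%, 5.45% higher and 9.57% lower), the latter with a single library assumed to vary like the other groups. With replicate 6 left out in its place, that group rested on replicate 5 alone. The result of P-IWP2 on Day 12, also in direction, thus depended on which library of the pair was kept.

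**Figure D1:**
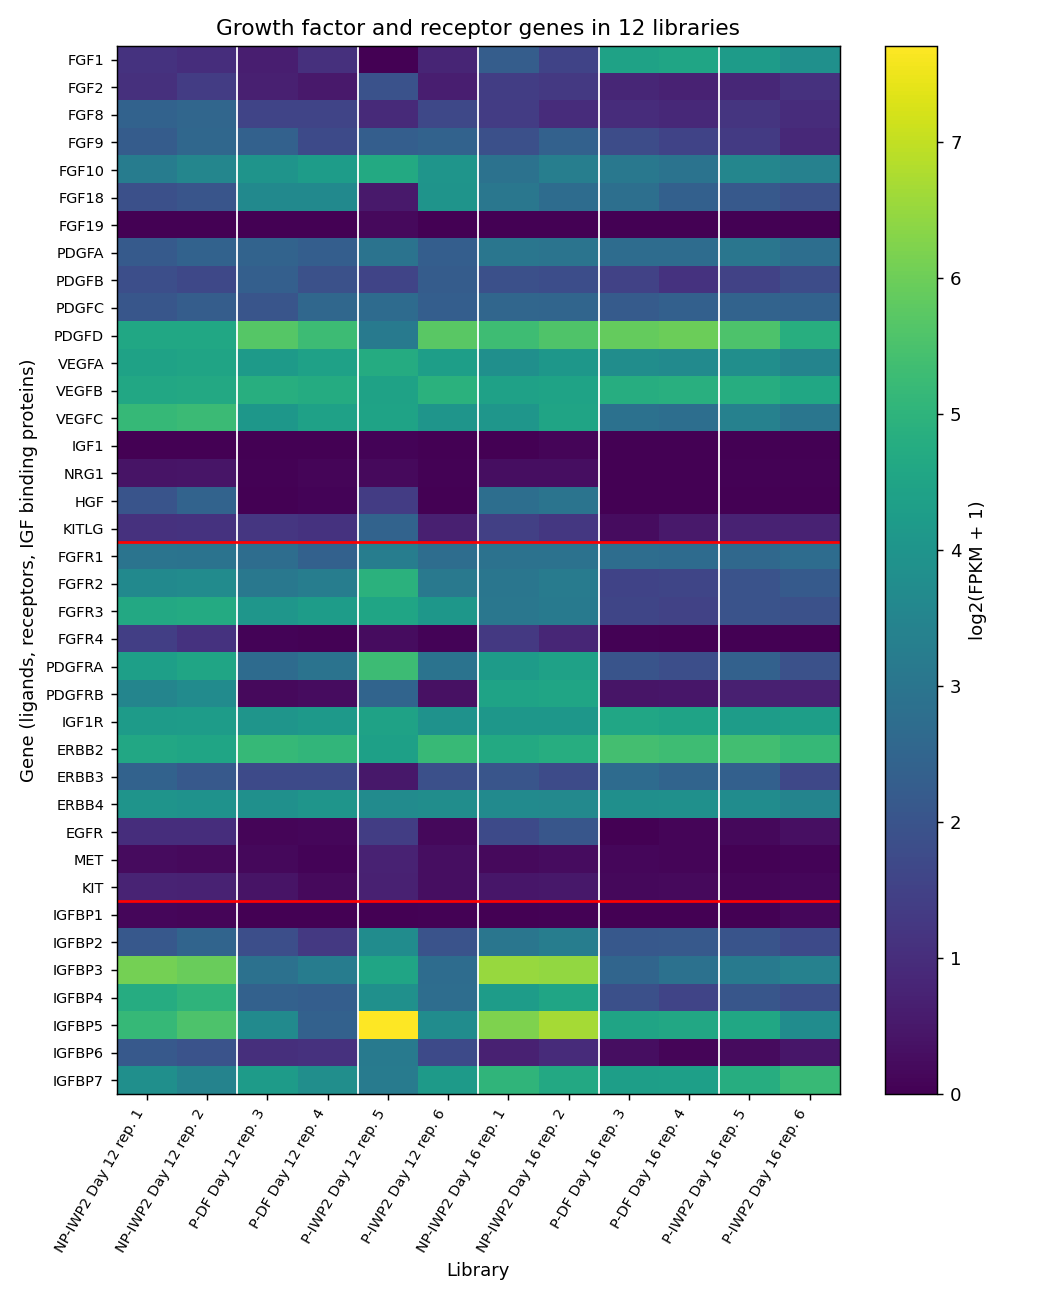
Level of each of the 38 genes, as log2(FPKM + 1) by color, in the 12 libraries (columns, with white lines between groups), and red lines between ligands, receptors and IGF binding proteins. PDGFRB and HGF are dark in the passaged groups except in the Day 12 library labelled P-IWP2 replicate 5, FGF1 is bright in the passaged libraries of Day 16, and IGFBP5 reaches its highest level, 208 FPKM, in that Day 12 library.

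**Figure D2:**
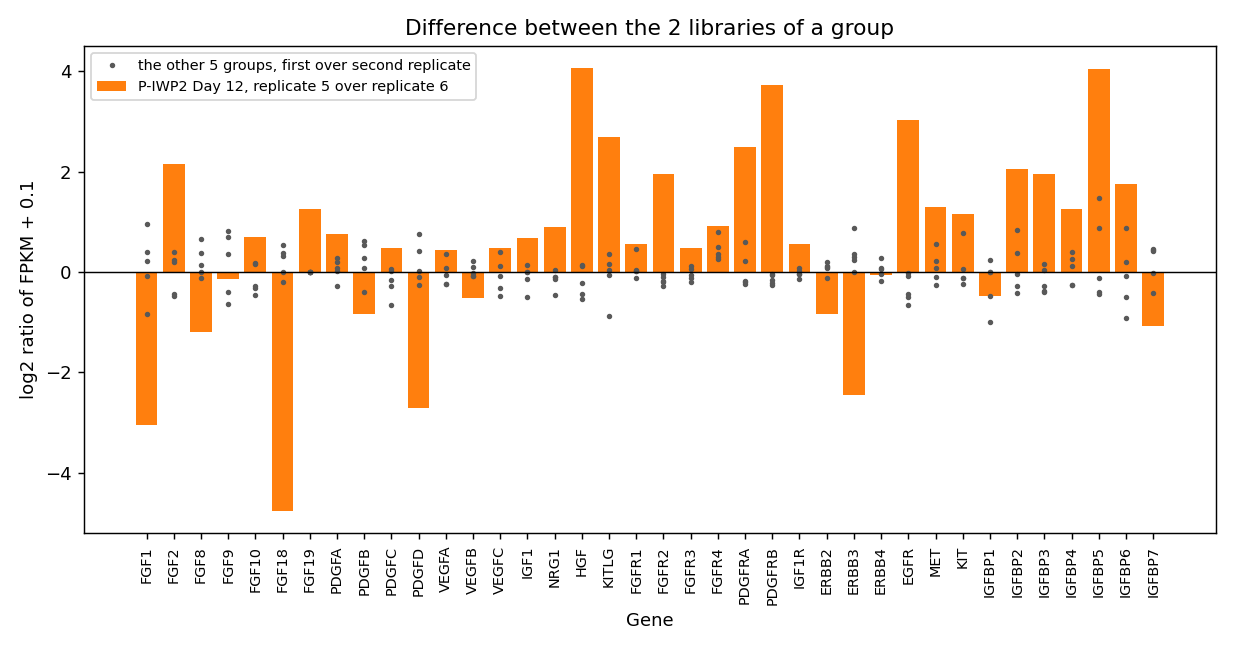
For each gene, the log2 ratio of FPKM + 0.1 between the 2 libraries of a group: bars show P-IWP2 Day 12 (replicate 5 over replicate 6) and points the other 5 groups. The bars reach 4.77 in size (FGF18, lower in replicate 5), while points stay within 1.47.

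FGF ligands went in different directions. FGF1, a secreted ligand that binds all FGF receptors, was at 1.21 and 1.02 FPKM in NP-IWP2, 0.58 and 1.11 in P-DF and 0 and 0.73 in P-IWP2 on Day 12. It was at 3.86 and 1.95 FPKM in NP-IWP2, 20.9 and 22.0 in P-DF and 17.8 and 13.5 in P-IWP2 on Day 16. All 4 passaged libraries of Day 16 lay above 13 FPKM and all other libraries below 4. FGF1 was higher on Day 16 than in NP-IWP2 by 3.09 ± 0.77 in P-DF (edgeR adjusted p = 0.027) and by 2.68 ± 0.76 in P-IWP2 (adjusted p = 0.0399). These calls were not made by DESeq2 (adjusted p = 0.107 and 0.167), and they held in 4 and 2 of the 12 fits that left out 1 library, with log2 fold changes between 2.65 and 3.75 in P-DF and between 2.23 and 3.34 in P-IWP2. The adjusted p was highest without NP-IWP2 replicate 2 of Day 16, at 0.196 and 0.254. The rise from Day 12 to Day 16 was 4.92 ± 0.86 in P-DF (adjusted p = 0.00801) and 5.75 ± 0.92 in P-IWP2 (adjusted p = 0.00376). The latter was 13.6 without P-IWP2 replicate 6 of Day 12, which leaves that group with the library at 0 counts. In NP-IWP2, FGF1 changed by 1.51 ± 0.78 (adjusted p = 0.32), which was not called. The interaction with day was 3.41 ± 1.11 for P-DF (adjusted p = 0.243) and 4.24 ± 1.16 for P-IWP2 (adjusted p = 0.0905), and both were called without replicate 5 of Day 12 P-IWP2 (3.40 ± 0.45 and 3.20 ± 0.52), a library with 0 counts of FGF1.

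FGF10, a ligand of FGFR2 made by mesenchyme and by progenitors of the second heart field, was at 8.44 and 10.6 FPKM in NP-IWP2, 14.9 and 18.1 in P-DF and 24.7 and 15.2 in P-IWP2 on Day 12. On Day 12 it was higher than in NP-IWP2 by 0.88 ± 0.19 in P-DF (adjusted p = 0.0374) and by 1.02 ± 0.19 in P-IWP2 (adjusted p = 0.0313), with no overlap between static and passaged libraries. Its Day 16 level was 6.44 and 8.86 FPKM in NP-IWP2, 7.56 and 6.66 in P-DF and 10.5 and 9.40 in P-IWP2. The difference on Day 16 was called in P-IWP2 (0.66 ± 0.19, adjusted p = 0.0416), and in P-DF it was 0.13 ± 0.19. FGF10 fell from Day 12 to Day 16 with a log2 fold change of -0.96 ± 0.19 in P-DF cells and with -0.57 ± 0.19 in P-IWP2 (adjusted p = 0.0133 and 0.0494). The 3 calls of FGF10 against NP-IWP2 were lost when counts were scaled to library totals (adjusted p = 0.107 in P-DF on Day 12 and 0.279 in P-IWP2 on Day 16), and that of P-IWP2 on Day 12 also in a fit of the 2 groups alone (adjusted p = 0.518). Each held in 2 of 12 fits without 1 library. The fall with time held in 9 of 12 such fits in P-DF, but in 1 of 12 in P-IWP2, where it ranged from -0.77 to -0.31. The call of that fall in P-IWP2 was also lost with DESeq2 size factors and in a fit of the 2 groups alone.

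FGF18, a ligand of FGFR3 known from bone and cartilage, was at 2.66 and 3.06 FPKM in NP-IWP2, 11.6 and 11.7 in P-DF and 0.45 and 14.9 in P-IWP2 on Day 12. The other 3 passaged libraries of Day 12 were above 11 FPKM and replicate 5 of P-IWP2 was below every other library. No comparison of FGF18 was called, and without that library it was higher on Day 12 by 2.11 ± 0.21 in P-DF cells and by 2.47 ± 0.24 in P-IWP2 (adjusted p = 1.06e-05 and 1.36e-05). Its Day 16 levels were 7.24 and 5.57 FPKM in NP-IWP2, 6.06 and 4.14 in P-DF and 3.49 and 2.79 in P-IWP2. FGF9, which signals from epicardium and endocardium to the growing myocardium, was at 3.72 and 4.95 FPKM in NP-IWP2, 4.20 and 2.33 in P-DF and 3.93 and 4.34 in P-IWP2 on Day 12, and 2.66 and 4.20 in NP-IWP2, 2.47 and 1.92 in P-DF and 1.48 and 0.87 in P-IWP2 on Day 16. It was lower on Day 16 in P-IWP2 with -1.26 ± 0.35 (adjusted p = 0.037), where both libraries lay below the other 4 of that day, and it fell with time in the same treatment with -1.43 ± 0.35. FGF8, an early mesoderm ligand, was at 4.39 and 4.78 FPKM in NP-IWP2, 2.00 and 2.00 in P-DF and 0.89 and 2.18 in P-IWP2 on Day 12, and 1.56 and 0.95 in NP-IWP2, 0.95 and 0.85 in P-DF and 1.30 and 0.98 in P-IWP2 on Day 16. FGF2, a ligand used to keep stem cells in culture, was at 1.10 and 1.58 FPKM in NP-IWP2, 0.61 and 0.44 in P-DF and 2.87 and 0.57 in P-IWP2 on Day 12, and 1.66 and 1.43 in NP-IWP2, 0.79 and 0.66 in P-DF and 0.82 and 1.15 in P-IWP2 on Day 16. Neither FGF8 nor FGF2 was called in any comparison. FGF19, a ligand that needs KLB to signal, had counts in 1 library only (4 counts, Day 12 P-IWP2 replicate 5).

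The PDGF ligands, which signal to PDGFRA and PDGFRB, were not called between passaged and static cells. PDGFA was at 3.56 and 4.37 FPKM in NP-IWP2, 4.52 and 3.92 in P-DF and 6.72 and 3.94 in P-IWP2 on Day 12, and 7.15 and 6.77 in NP-IWP2, 5.63 and 5.55 in P-DF and 7.17 and 5.92 in P-IWP2 on Day 16. It rose with time in NP-IWP2 by 0.93 ± 0.19 and in P-IWP2 by 0.73 ± 0.19 (adjusted p = 0.0469 and 0.0241), and the change in P-DF, 0.66 ± 0.19, was not called. PDGFB, made mainly by endothelial cells, was at 2.64 and 2.16 FPKM in NP-IWP2, 4.06 and 2.76 in P-DF and 2.02 and 3.70 in P-IWP2 on Day 12, and 2.65 and 2.52 in NP-IWP2, 1.87 and 1.18 in P-DF and 1.84 and 2.46 in P-IWP2 on Day 16. PDGFC was at 3.17 and 3.88 FPKM in NP-IWP2, 3.11 and 4.96 in P-DF and 5.47 and 3.91 in P-IWP2 on Day 12, and 4.80 and 4.73 in NP-IWP2, 3.67 and 4.10 in P-DF and 4.52 and 4.31 in P-IWP2 on Day 16. PDGFD was the PDGF ligand with the highest FPKM in every library, at 23.2 and 22.9 FPKM in NP-IWP2, 50.5 and 37.6 in P-DF and 7.88 and 52.2 in P-IWP2 on Day 12, and 39.2 and 47.1 in NP-IWP2, 58.1 and 62.5 in P-DF and 46.3 and 27.5 in P-IWP2 on Day 16. PDGFB, PDGFC and PDGFD were called in no comparison. PDGFD was low in replicate 5 of Day 12 P-IWP2, and without that library it was higher in P-DF by 1.02 ± 0.18 on Day 12 and 0.72 ± 0.18 on Day 16 (adjusted p = 0.00141 and 0.00832).

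Among the VEGF ligands, VEGFC was lower in passaged cells and the others did not pass the test against static cells. VEGFC, the ligand that drives lymphatic growth through FLT4, was at 35.1 and 37.2 FPKM in NP-IWP2, 16.0 and 20.1 in P-DF and 21.3 and 15.3 in P-IWP2 on Day 12, and 15.6 and 21.7 in NP-IWP2, 6.41 and 5.92 in P-DF and 9.41 and 7.16 in P-IWP2 on Day 16. The passaged libraries lay below the static ones of the same day without overlap. VEGFC was lower in P-DF with -0.91 ± 0.17 on Day 12 and -1.36 ± 0.17 on Day 16, and in P-IWP2 with -1.02 ± 0.17 and -0.89 ± 0.17 (adjusted p between 0.0016 and 0.0213). It also fell with time in NP-IWP2, P-DF and P-IWP2, with -0.85 ± 0.17, -1.29 ± 0.17 and -0.73 ± 0.17. Its calls in P-DF on Day 16 and over time in P-DF held in every fit that left out 1 library and under every other setting tried. The fall in NP-IWP2 held in 4 of 12 fits without 1 library and was lost with total-count scaling and with a replicate block. The VEGFC call in P-IWP2 on Day 12 was lost with total-count scaling and in a fit of the 2 groups alone. VEGFA, the main ligand for blood vessels and a target of hypoxia, was at 20.7 and 21.7 FPKM in NP-IWP2, 17.4 and 20.4 in P-DF and 25.7 and 19.0 in P-IWP2 on Day 12, and 13.4 and 16.0 in NP-IWP2, 12.6 and 12.0 in P-DF and 13.0 and 10.2 in P-IWP2 on Day 16. It fell with time in P-IWP2 with -0.53 ± 0.14 (adjusted p = 0.0229), and its differences between passaged and static cells, which lay between -0.08 and 0.04, were not called. The mean of VEGFA also went down in NP-IWP2 (21.2 to 14.7 FPKM) and in P-DF (18.9 to 12.3), and those changes were not called. VEGFB, which is abundant in heart muscle, was at 23.4 and 23.9 FPKM in NP-IWP2, 27.4 and 25.6 in P-DF and 20.6 and 29.5 in P-IWP2 on Day 12, and 20.2 and 21.2 in NP-IWP2, 26.9 and 28.4 in P-DF and 26.8 and 23.1 in P-IWP2 on Day 16 and was called in no comparison.

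HGF and NRG1 were lower in passaged cells on Day 16. HGF, a mesenchymal ligand of MET, was at 3.03 and 4.44 FPKM in NP-IWP2, 0.01 and 0.05 in P-DF and 1.57 and 0 in P-IWP2 on Day 12, and 5.83 and 6.81 in NP-IWP2, 0.01 and 0 in P-DF and 0.02 and 0.01 in P-IWP2 on Day 16. In counts, the static libraries of Day 16 held 2151 reads of HGF, P-DF held 1 and P-IWP2 held 6. The ratio of NP-IWP2 to P-DF was 2090 with an exact 95% interval from 374 to 82500 (counting error only). HGF was lower in P-IWP2 on Day 16 with -8.24 ± 1.66 (adjusted p = 0.0113) and in P-DF on Day 12 with -6.84 ± 1.57 (adjusted p = 0.045). The calls of Day 16 were lost in 2 (P-DF) and 3 (P-IWP2) of 12 fits without 1 library, with an adjusted p of at most 0.115, and the Day 12 call was lost in 10. On Day 12, HGF was at 1.57 FPKM in P-IWP2 replicate 5 and at 0 counts in replicate 6. NRG1, the neuregulin that activates ERBB3 and ERBB4, was at 0.32 and 0.35 FPKM in NP-IWP2, 0.03 and 0.08 in P-DF and 0.14 and 0.03 in P-IWP2 on Day 12, and 0.23 and 0.22 in NP-IWP2, 0 and 0.01 in P-DF and 0.03 and 0.04 in P-IWP2 on Day 16. Its ratio of NP-IWP2 to P-DF on Day 16 was 54.3 with an exact 95% interval from 18.3 to 266 (168 against 3 counts, adjusted p = 0.00358), and it was lower in P-IWP2 with -2.43 ± 0.60 (adjusted p = 0.0257). It fell with time in P-DF, from 39 to 3 counts, a ratio of 14.4 (4.57 to 72.7, adjusted p = 0.0331). KITLG, the ligand of KIT, was at 1.13 and 1.18 FPKM in NP-IWP2, 1.31 and 1.17 in P-DF and 4.48 and 0.61 in P-IWP2 on Day 12, and 1.76 and 1.36 in NP-IWP2, 0.19 and 0.43 in P-DF and 0.68 and 0.66 in P-IWP2 on Day 16. Its lowest libraries were the 4 passaged ones of Day 16 and replicate 6 of Day 12 P-IWP2, but no comparison was called, and without replicate 5 it was lower on Day 16 with -2.09 ± 0.30 in P-DF cells and with -0.96 ± 0.27 in P-IWP2. IGF1 was at 0.07 FPKM or less in every library. It had 12 counts in NP-IWP2 on Day 16 against 0 in P-DF and 1 in P-IWP2, and the latter ratio was 12.7 with an exact 95% interval from 1.88 to 544.

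The 4 FGF receptors did not move together. FGFR3, the receptor that restrains bone growth, was at 24.1 and 25.4 FPKM in NP-IWP2, 15.7 and 18.2 in P-DF and 22.0 and 15.8 in P-IWP2 on Day 12, and 7.36 and 8.05 in NP-IWP2, 2.06 and 1.89 in P-DF and 2.92 and 2.79 in P-IWP2 on Day 16. On Day 16 it was lower in P-DF with -1.73 ± 0.12 (adjusted p = 0.000108) and in P-IWP2 with -1.15 ± 0.12 (adjusted p = 0.000524). It fell with time in NP-IWP2 with -1.57 ± 0.12, in P-DF with -2.84 ± 0.12 and in P-IWP2 with -2.30 ± 0.12 (adjusted p = 0.00189, 3.29e-05 and 0.000143). The interaction of P-DF and day was called (-1.27 ± 0.17, adjusted p = 0.0208), so that its difference from static cells was larger on Day 16 than on Day 12, when it was -0.46 ± 0.11. FGFR3 was the 1 member called in this interaction, where 0.482% of all genes were (0.174% higher and 0.308% lower), and the call held in 4 of 12 fits without 1 library (adjusted p of at most 0.161, without P-DF replicate 4 of Day 16). FGFR4, a receptor of hepatic and muscle precursor cells, was at 1.71 and 1.18 FPKM in NP-IWP2, 0.06 and 0.03 in P-DF and 0.20 and 0.06 in P-IWP2 on Day 12, and 1.43 and 0.78 in NP-IWP2, 0.04 and 0.01 in P-DF and 0.02 and 0 in P-IWP2 on Day 16. It was lower in P-DF with -5.02 ± 0.74 on Day 12 and -5.20 ± 0.78 on Day 16, and in P-IWP2 with -3.51 ± 0.63 on Day 12 (adjusted p = 0.00954, 0.00358 and 0.0279). In P-IWP2 on Day 16 it had 2 counts against 191 in NP-IWP2, a ratio of 101 with an exact 95% interval from 27.6 to 842 (adjusted p = 0.0025). The hepatic markers given above were lower in the same libraries, and their part in FGFR4 was not tested.

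FGFR2, the receptor of FGF10 and FGF7, was at 11.7 and 12.1 FPKM in NP-IWP2, 7.55 and 8.53 in P-DF and 29.6 and 7.61 in P-IWP2 on Day 12, and 7.15 and 8.22 in NP-IWP2, 1.91 and 2.06 in P-DF and 2.92 and 3.58 in P-IWP2 on Day 16. On Day 16 every passaged library was below 4 FPKM and every static one above 7. It was lower on Day 16 in P-DF with -1.72 ± 0.43 (adjusted p = 0.0281), and the difference in P-IWP2, -0.95 ± 0.42, was not called (adjusted p = 0.147) unless replicate 5 of Day 12 was left out (adjusted p = 7.42e-05). FGFR2 fell with time in P-DF with -1.76 ± 0.43 and in P-IWP2 with -2.04 ± 0.43. The latter was -0.92 ± 0.15 without replicate 5, in which FGFR2 was highest of all libraries. FGFR1, the FGF receptor found in most cells, was at 6.76 and 6.64 FPKM in NP-IWP2, 5.77 and 4.20 in P-DF and 8.60 and 5.81 in P-IWP2 on Day 12, and 6.53 and 6.48 in NP-IWP2, 5.69 and 5.52 in P-DF and 5.11 and 5.55 in P-IWP2 on Day 16. It was called in no comparison, and on Day 16 its difference from static cells was 0.01 ± 0.17 in P-DF, with -0.01 ± 0.17 in P-IWP2.

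Both PDGF receptors were lower in passaged cells on Day 16. PDGFRB, a receptor of pericytes and fibroblasts, was at 10.5 and 12.2 FPKM in NP-IWP2, 0.15 and 0.20 in P-DF and 4.63 and 0.26 in P-IWP2 on Day 12, and 21.1 and 22.1 in NP-IWP2, 0.34 and 0.39 in P-DF and 0.61 and 0.63 in P-IWP2 on Day 16. All passaged libraries except replicate 5 of Day 12 P-IWP2 were below 0.7 FPKM, and all static ones above 10. PDGFRB was lower in P-DF with -5.91 ± 1.00 on Day 12 and -5.65 ± 0.94 on Day 16 (adjusted p = 0.0167 and 0.00543), and in P-IWP2 with -4.84 ± 0.89 on Day 16 (adjusted p = 0.0077). On Day 12 the difference in P-IWP2 was -2.32 ± 0.78 and not called, and it was -5.33 ± 0.21 without replicate 5 (adjusted p = 2.62e-08). PDGFRA, which marks cardiac mesoderm and later fibroblasts, was at 19.4 and 22.0 FPKM in NP-IWP2, 5.52 and 6.58 in P-DF and 37.7 and 6.60 in P-IWP2 on Day 12, and 17.6 and 20.2 in NP-IWP2, 3.04 and 2.60 in P-DF and 4.22 and 2.74 in P-IWP2 on Day 16. It was lower on Day 16 with -2.51 ± 0.57 in P-DF cells and with -2.17 ± 0.56 in P-IWP2 (adjusted p = 0.0188 and 0.0288), and it fell with time in P-IWP2 with -2.19 ± 0.56, a value that was -0.63 ± 0.18 without replicate 5. In the same libraries the fibroblast markers were lower in passaged cells (6 of 7 in P-DF and 7 of 7 in P-IWP2 on Day 16), and the part of that difference in the PDGF receptors was not tested. Leaving out 1 library ended the Day 16 calls of PDGFRB in 2 of 12 fits in each treatment (adjusted p of at most 0.0726), and those of PDGFRA in 4 (P-DF) and 8 (P-IWP2) of 12.

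The ERBB receptors split into EGFR and the rest. EGFR, the EGF receptor of epithelial and stromal cells, was at 1.02 and 1.03 FPKM in NP-IWP2, 0.08 and 0.09 in P-DF and 1.62 and 0.11 in P-IWP2 on Day 12, and 2.34 and 3.20 in NP-IWP2, 0.02 and 0.07 in P-DF and 0.12 and 0.25 in P-IWP2 on Day 16. It was lower on Day 16 in P-DF with -5.68 ± 1.06 and in P-IWP2 with -3.58 ± 0.91 (adjusted p = 0.00879 and 0.0273). ERBB2, the partner of the other ERBB receptors with no ligand of its own, was at 23.4 and 22.2 FPKM in NP-IWP2, 35.1 and 32.5 in P-DF and 19.8 and 35.7 in P-IWP2 on Day 12, and 24.6 and 26.7 in NP-IWP2, 41.8 and 38.9 in P-DF and 40.2 and 34.9 in P-IWP2 on Day 16. All passaged libraries but replicate 5 of Day 12 P-IWP2 were above all static ones. ERBB2 was not called on either day, at 0.89 ± 0.27 and 0.82 ± 0.27 on Day 16 (adjusted p = 0.0574 and 0.0672), but was called without replicate 5 at 0.88 ± 0.10 and 0.83 ± 0.10. ERBB4, the neuregulin receptor of cardiomyocytes, was at 15.0 and 14.3 FPKM in NP-IWP2, 13.5 and 15.2 in P-DF and 12.1 and 12.6 in P-IWP2 on Day 12, and 11.9 and 11.4 in NP-IWP2, 13.2 and 13.6 in P-DF and 12.5 and 10.2 in P-IWP2 on Day 16. ERBB3, a receptor with little kinase activity, was at 4.31 and 3.48 FPKM in NP-IWP2, 2.29 and 2.31 in P-DF and 0.40 and 2.65 in P-IWP2 on Day 12, and 3.10 and 2.41 in NP-IWP2, 5.52 and 4.64 in P-DF and 4.10 and 2.20 in P-IWP2 on Day 16. Neither was called. EGFR counts were low in passaged libraries (as few as 5), and its Day 16 calls were lost in 2 (P-DF) and 6 (P-IWP2) of 12 fits without 1 library.

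IGF1R, the receptor of IGF1 and IGF2, was at 17.6 and 18.1 FPKM in NP-IWP2, 15.3 and 16.9 in P-DF and 20.9 and 14.3 in P-IWP2 on Day 12, and 16.0 and 15.9 in NP-IWP2, 22.4 and 21.3 in P-DF and 18.2 and 18.8 in P-IWP2 on Day 16. It was higher on Day 16 in P-DF by 0.68 ± 0.14 and in P-IWP2 by 0.49 ± 0.14 (adjusted p = 0.0118 and 0.0385), with no overlap with static libraries, and it rose with time in P-DF by 0.70 ± 0.14 and in P-IWP2 by 0.50 ± 0.14. Scaling to library totals ended all 4 calls (adjusted p = 0.0837 and 0.369 on Day 16), and that scaling shifted the median of all genes on Day 16 (-0.233 for P-DF, -0.278 for P-IWP2) and over time (-0.258 and -0.414). IGF1R, ERBB2, ERBB4, VEGFA and VEGFB were the 5 members at 10 FPKM or more in every library. KIT, the receptor of stem and mast cells, was at 0.69 and 0.66 FPKM in NP-IWP2, 0.33 and 0.15 in P-DF and 0.63 and 0.23 in P-IWP2 on Day 12, and 0.37 and 0.41 in NP-IWP2, 0.13 and 0.15 in P-DF and 0.07 and 0.10 in P-IWP2 on Day 16. It was lower on Day 16 in P-IWP2 with -1.90 ± 0.48 and fell with time there with -1.88 ± 0.48 (adjusted p = 0.028 and 0.0223). The Day 16 call of KIT held in 6 of 12 fits without 1 library. Its fall with time held in 9, with values from -2.34 to -1.15, and was not called without replicate 5 of Day 12. MET, the HGF receptor, was at 0.18 and 0.14 FPKM in NP-IWP2, 0.12 and 0.05 in P-DF and 0.66 and 0.21 in P-IWP2 on Day 12, and 0.15 and 0.20 in NP-IWP2, 0.09 and 0.08 in P-DF and 0.04 and 0.05 in P-IWP2 on Day 16. It fell with time in P-IWP2 with -2.79 ± 0.59 (adjusted p = 0.0107), and this value was -1.91 ± 0.59 without replicate 5.

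**Figure D3:**
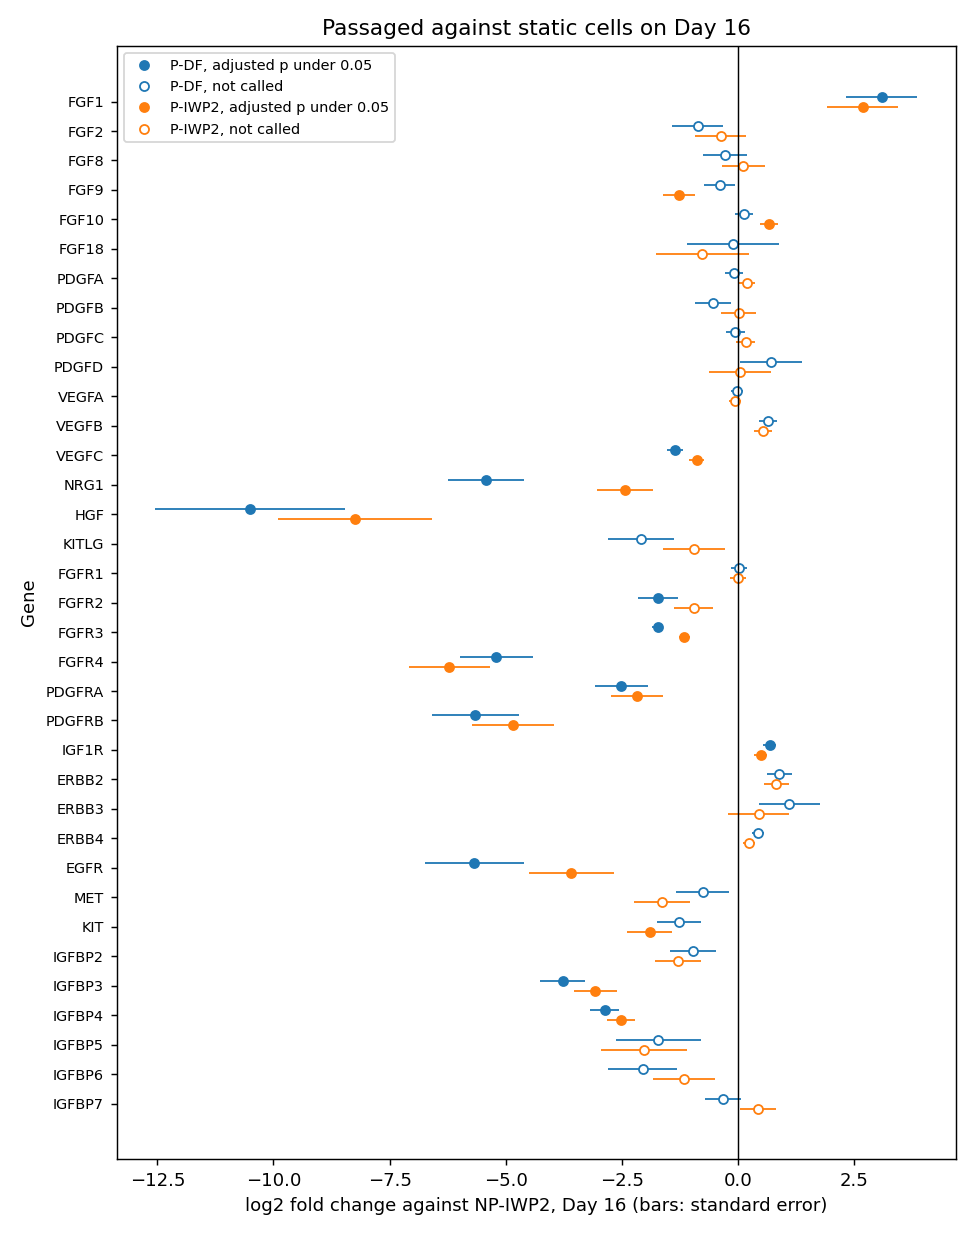
Log2 fold change (horizontal axis) of the 35 members tested in P-DF (blue) and P-IWP2 (orange) against NP-IWP2 on Day 16, with bars for the standard error and filled points at an adjusted p under 0.05. FGF1 lies to the right at 3.09 and 2.68, while HGF, FGFR4, PDGFRB and EGFR lie below -3.5 (HGF and NRG1 in P-DF and FGFR4 in P-IWP2 rest on 1 to 3 counts).

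**Figure D4:**
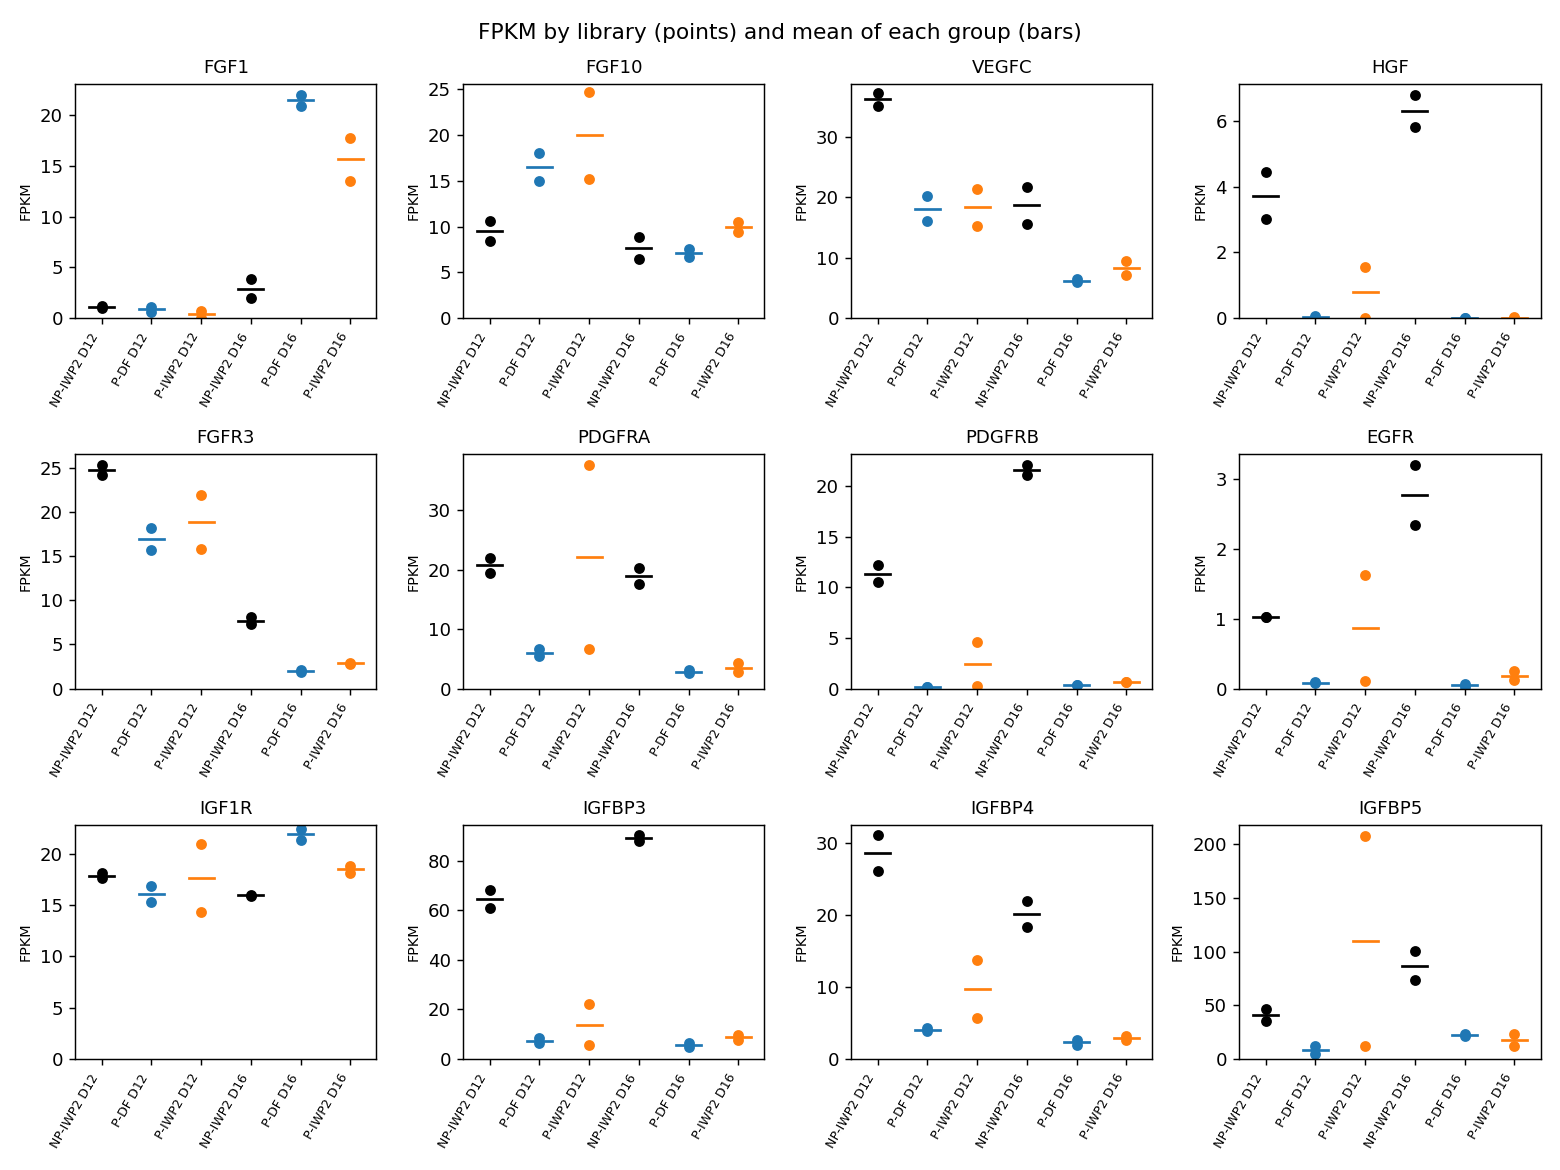
FPKM of 12 members in each library (points) with the mean of each group (bars), in black for NP-IWP2, blue for P-DF and orange for P-IWP2, with each vertical axis starting at 0. FGF1 reaches 20.9 and 22.0 FPKM in P-DF on Day 16, IGFBP3 stays at or below 9.53 in the passaged libraries of that day against 90.2 and 87.7 in NP-IWP2, and the 2 points of P-IWP2 on Day 12 lie far apart in PDGFRA and IGFBP5.

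IGFBP3 and IGFBP4 were lower in passaged cells on both days. IGFBP3, the main IGF carrier of plasma, was at 68.0 and 60.8 FPKM in NP-IWP2, 6.40 and 8.42 in P-DF and 22.1 and 5.64 in P-IWP2 on Day 12, and 90.2 and 87.7 in NP-IWP2, 4.76 and 6.34 in P-DF and 7.86 and 9.53 in P-IWP2 on Day 16. It was lower in P-DF with -3.03 ± 0.47 on Day 12 and -3.77 ± 0.48 on Day 16, and in P-IWP2 with -2.30 ± 0.45 and -3.07 ± 0.47 (adjusted p = 0.0118, 0.00171, 0.0404 and 0.00358). IGFBP4, an inhibitor of IGF signaling that PAPPA cleaves, was at 26.1 and 31.1 FPKM in NP-IWP2, 4.27 and 3.92 in P-DF and 13.8 and 5.68 in P-IWP2 on Day 12, and 18.3 and 21.9 in NP-IWP2, 2.68 and 2.01 in P-DF and 3.16 and 2.63 in P-IWP2 on Day 16. It was lower in P-DF with -2.71 ± 0.30 and -2.87 ± 0.31 and in P-IWP2 with -1.62 ± 0.29 and -2.52 ± 0.30 (adjusted p = 0.00282, 0.000783, 0.0273 and 0.00124). IGFBP4 also fell with time in P-IWP2 with -1.30 ± 0.30 (adjusted p = 0.0147), a value that ranged from -1.71 to -0.67 when 1 library was left out. No passaged library of Day 16 overlapped the static ones in either gene. Their 4 Day 16 calls held without any 1 library and under every other setting tried. Both Day 12 calls in P-IWP2 were lost with total-count scaling and in a fit of those 2 groups alone (adjusted p of at most 0.654).

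IGFBP5, the binding protein with the highest single level, was at 35.2 and 46.3 FPKM in NP-IWP2, 11.9 and 4.26 in P-DF and 208 and 12.5 in P-IWP2 on Day 12, and 73.8 and 100.2 in NP-IWP2, 21.4 and 23.5 in P-DF and 23.0 and 12.4 in P-IWP2 on Day 16. The static libraries lay above the passaged ones on both days apart from replicate 5, yet no comparison was called, at -1.71 ± 0.92 and -2.03 ± 0.93 on Day 16. Without replicate 5 the differences were called at -1.72 ± 0.35 and -2.03 ± 0.36 on Day 16 (adjusted p = 0.00218 and 0.000684). IGFBP6, which prefers IGF2, was at 3.41 and 2.95 FPKM in NP-IWP2, 1.05 and 1.12 in P-DF and 8.08 and 2.34 in P-IWP2 on Day 12, and 0.62 and 0.92 in NP-IWP2, 0.23 and 0.08 in P-DF and 0.16 and 0.39 in P-IWP2 on Day 16, and it fell with time in P-DF with -2.52 ± 0.72 and in P-IWP2 with -3.73 ± 0.63 (adjusted p = 0.049 and 0.00462). The fall in P-DF, from 21 and 24 counts to 5 and 2, held in 2 of 12 fits without 1 library, with values from -3.37 to -1.96. That in P-IWP2 held in all 12. The mean of IGFBP6 also went down in NP-IWP2, from 3.18 to 0.77 FPKM, and that change was not called. IGFBP7, a binding protein with low affinity for IGF, was at 13.3 and 9.81 FPKM in NP-IWP2, 17.7 and 12.9 in P-DF and 8.19 and 17.5 in P-IWP2 on Day 12, and 32.2 and 24.0 in NP-IWP2, 19.1 and 19.4 in P-DF and 26.8 and 35.7 in P-IWP2 on Day 16, and it rose with time in P-IWP2 by 1.66 ± 0.40 (adjusted p = 0.0171). That value ranged from 1.15 to 2.48 when 1 library was left out. The mean of IGFBP7 also went up in NP-IWP2, from 11.6 to 28.1 FPKM, and that change was not called. IGFBP2 was at 3.39 and 4.55 FPKM in NP-IWP2, 2.58 and 1.41 in P-DF and 12.4 and 2.93 in P-IWP2 on Day 12, and 7.14 and 8.72 in NP-IWP2, 3.37 and 3.48 in P-DF and 3.04 and 2.31 in P-IWP2 on Day 16 and was not called. IGFBP1, a product of liver, had at most 3 counts.

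No member was called between passaged cells with and without IWP2 on Day 16. Of 35 members, 0 were called by edgeR between P-IWP2 and P-DF, 0 by DESeq2, and 0.00% of all genes, while 5 members had an unadjusted p under 0.05. These were FGFR3 (0.58 ± 0.12), NRG1 (27 against 3 counts, a ratio of 8.24 with an exact 95% interval from 2.54 to 42.4), FGF10 (0.53 ± 0.19), VEGFC (0.47 ± 0.17) and FGF9 (-0.87 ± 0.35). Without replicate 5 of Day 12, 5 members were called and all were higher in P-IWP2 (of all genes 2.49% were, 1.64% higher and 0.843% lower): EGFR, FGFR2, FGFR3, NRG1 and PDGFRB. PDGFRB was then 0.81 ± 0.17 and FGFR2 0.76 ± 0.13.

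Members called over time were counted in each treatment, and the difference between treatments was tested only gene by gene. In NP-IWP2, 1 member rose and 2 fell between Day 12 and Day 16 (1.98% of all genes called, 0.877% higher and 1.10% lower), in P-DF 2 rose and 6 fell (13.6%, 6.79% higher and 6.81% lower), and in P-IWP2 4 rose and 11 fell (27.0%, 12.9% higher and 14.1% lower). The interaction of treatment and day was called for FGFR3 with P-DF and for no member with P-IWP2 (1.84% of all genes, 0.774% higher and 1.06% lower), where 15 members had an unadjusted p under 0.05 and DESeq2 called 4. Without replicate 5 of Day 12, the time counts were 12 and 6 (17.1%, 9.23% higher and 7.91% lower), 11 and 12 (29.2%, 15.1% higher and 14.1% lower) and 7 and 10 (23.7%, 12.4% higher and 11.3% lower), and the interactions 3 and 8 (7.62%, 3.57% higher and 4.05% lower) and 2 and 3 (7.89%, 3.86% higher and 4.03% lower). FGFR2, NRG1, EGFR and FGF18 were among those called then for P-DF, at -1.23 ± 0.18, -3.00 ± 0.73, -2.21 ± 0.59 and -2.22 ± 0.29.

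The genes downstream of these receptors were followed in lists. ERK target and feedback genes are switched on by ERK activity, and many of them damp the pathway again. On Day 16, 0 of 20 were higher and 10 lower in P-DF, and 1 was higher and 7 lower in P-IWP2, where 15.3% and 17.1% of all genes were called. Their medians were -1.20 and -1.12. The counts were 0 and 14 in P-DF and 1 and 14 in P-IWP2 without replicate 5 of Day 12 P-IWP2 (32.4% and 34.8% of all genes). DUSP4, a phosphatase of ERK, was at 2.71 and 2.63 FPKM in NP-IWP2, 0.35 and 0.40 in P-DF and 0.30 and 0.65 in P-IWP2 on Day 16. It was lower with -2.59 ± 0.46 and -2.18 ± 0.45. SPRY2, which blocks receptor signaling upstream of RAS, was at 49.1 and 56.1 FPKM in NP-IWP2, 17.9 and 16.6 in P-DF and 15.8 and 13.7 in P-IWP2 on Day 16, and was lower in P-IWP2 with -1.55 ± 0.18 and in P-DF with -1.38 ± 0.18. On Day 12 no gene of this list was called by edgeR in either passaged treatment, beside 4.01% (P-DF) and 1.66% (P-IWP2) of all genes called. Of the 20 genes, 4 in P-DF and 5 in P-IWP2 had an unadjusted edgeR p under 0.05 on that day. Without that library 2 were higher and 4 lower in P-DF on Day 12, beside 21.9% of all genes called. SPRED1 and SPRED2, inhibitors of RAS and RAF, had a called interaction with day in P-DF (-1.50 ± 0.20 and -1.45 ± 0.25), where 0.482% of all genes were called. Without that library 12 of the 20 genes were called lower in this interaction, beside 7.62% of all genes called (4.05% lower). SPRED1 was at 5.99 and 6.01 FPKM in NP-IWP2, 4.66 and 5.42 in P-DF and 6.59 and 5.52 in P-IWP2 on Day 12, and 6.39 and 6.43 in NP-IWP2, 1.79 and 1.65 in P-DF and 1.66 and 2.05 in P-IWP2 on Day 16, and its interaction in P-IWP2 was -1.49 ± 0.20. ETV4, a transcription factor of FGF signaling, had a positive interaction in P-IWP2, with 0.61 and 0.37 FPKM in NP-IWP2, 0.19 and 0.14 in P-DF and 0.93 and 1.29 in P-IWP2 on Day 16 and an estimate of 2.97 ± 0.55. MYC and IER3 rose with time in NP-IWP2, by 1.41 ± 0.23 and 1.48 ± 0.25. FOSL1 and PHLDA1 were lower in P-DF on Day 16 with -3.36 ± 0.64 and -3.04 ± 0.75, and FOS in P-IWP2 with -1.62 ± 0.36.

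**Figure D5:**
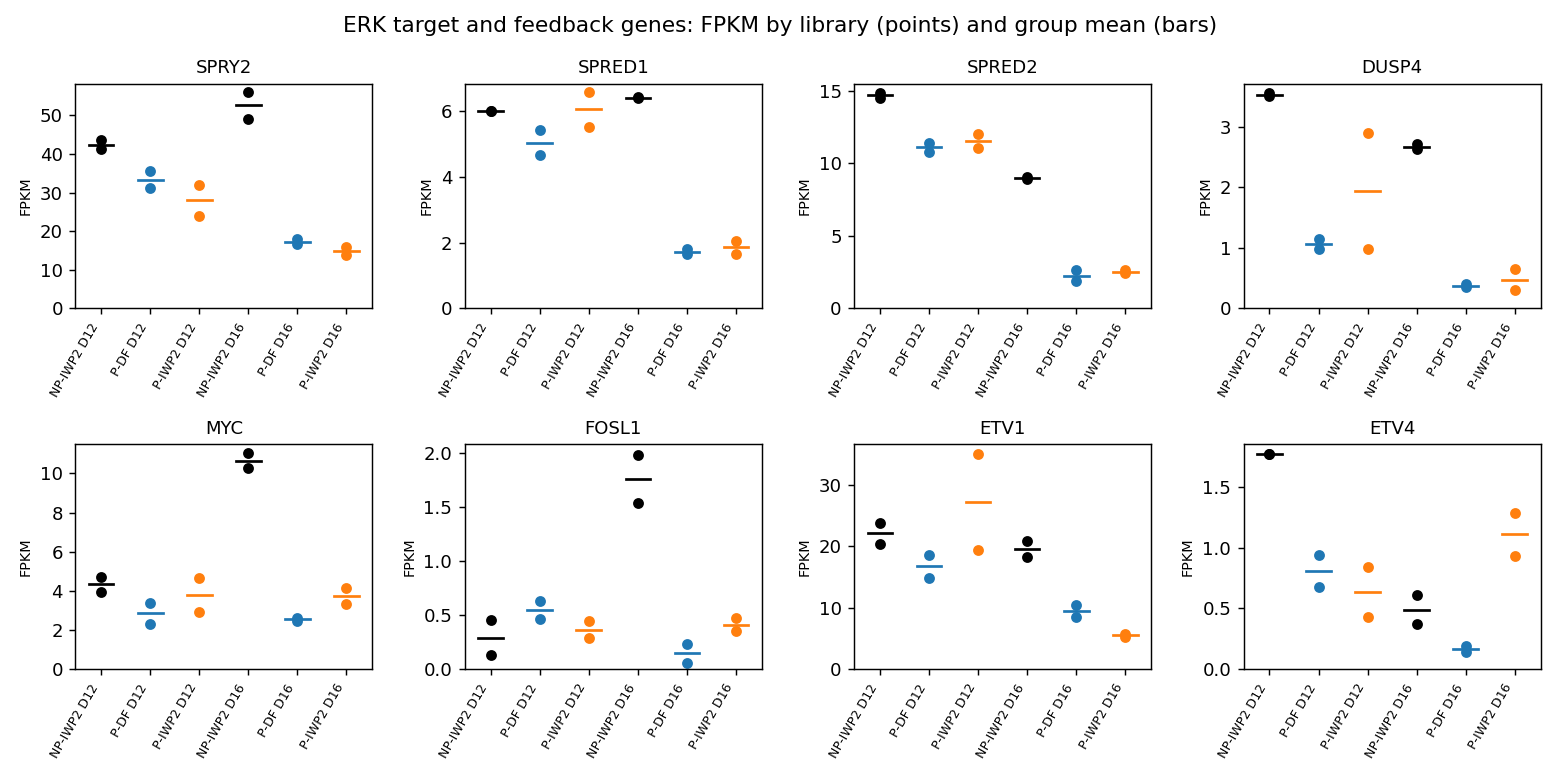
FPKM of 8 ERK target and feedback genes in each library (points) with the mean of each group (bars), in black for NP-IWP2, blue for P-DF and orange for P-IWP2, with each vertical axis starting at 0. SPRED1 lies between 4.66 and 6.59 FPKM in all libraries except the 4 passaged ones of Day 16, which lie between 1.65 and 2.05.

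Among the RAS, ERK and PI3K components, 4 of 35 were higher and 3 lower in P-DF and 6 higher and 2 lower in P-IWP2 on Day 16, with medians of 0.07 and 0.06, beside 15.3% and 17.1% of all genes called. The counts were 8 and 7 in P-DF and 11 and 8 in P-IWP2 without replicate 5 of Day 12 P-IWP2 (32.4% and 34.8% of all genes). GAB1, an adaptor that recruits PI3K to receptors, was at 23.5 and 22.2 FPKM in NP-IWP2, 57.1 and 58.1 in P-DF and 49.6 and 36.1 in P-IWP2 on Day 16, and was higher by 1.56 ± 0.30 and 1.17 ± 0.30. ERRFI1, an inhibitor of EGFR, was lower in P-DF with -1.77 ± 0.40 on Day 12 and -2.09 ± 0.40 on Day 16. MAP2K1, the kinase of ERK, was higher in P-IWP2 by 1.34 ± 0.29 on Day 16.

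Other genes of the same families were tested for 29 of 39. On Day 16, 2 were higher and 4 lower in P-DF, and 3 higher and 6 lower in P-IWP2, beside 15.3% and 17.1% of all genes. The counts were 6 and 7 and then 8 and 12 without replicate 5 of Day 12 P-IWP2 (32.4% and 34.8% of all genes). FLT1, a VEGF receptor of endothelium, was at 5.37 and 4.05 FPKM in NP-IWP2, 0.18 and 0.14 in P-DF and 0.14 and 0.08 in P-IWP2 on Day 16, and was lower with -4.66 ± 1.12 and -5.16 ± 1.16. IGF2, the fetal IGF ligand, was lower on Day 12 in P-DF with -4.76 ± 0.94, at 187 and 197 FPKM in NP-IWP2, 6.63 and 6.67 in P-DF and 104 and 6.25 in P-IWP2 on Day 12, and 342 and 316 in NP-IWP2, 28.2 and 31.8 in P-DF and 53.8 and 60.5 in P-IWP2 on Day 16. KLB and KL, co-receptors of endocrine FGF ligands, were low on Day 16 but differed between static and passaged libraries. KLB was at 0.82 and 0.65 FPKM in NP-IWP2, 0 and 0 in P-DF and 0.03 and 0 in P-IWP2. KL was at 0.49 and 0.41 FPKM in NP-IWP2, 0.04 and 0.01 in P-DF and 0 and 0 in P-IWP2. Of 38 other receptor tyrosine kinases and ligands tested, 3 were higher and 14 lower in P-DF on Day 16, and 3 higher and 15 lower in P-IWP2, beside the same shares of all genes. The counts were 4 and 24 of 39 in each treatment without that library, beside 32.4% (P-DF) and 34.8% (P-IWP2) of all genes. TEK, the angiopoietin receptor, was at 10.3 and 10.1 FPKM in NP-IWP2, 0 and 0.10 in P-DF and 0.08 and 0.12 in P-IWP2 on Day 16, and NTRK2, a neurotrophin receptor, was lower with -5.72 ± 0.99 and -5.62 ± 0.98. The endothelial marker sum on Day 16, given above, differed in the same direction as FLT1 and TEK. Within NP-IWP2, that sum went from 20.4 and 25.9 FPKM on Day 12 to 4.76 and 4.71 on Day 16. Over the same days TEK went from 11.5 and 10.9 FPKM to 10.3 and 10.1. FLT1 went from 5.60 and 6.13 FPKM to 5.37 and 4.05. The part of the endothelial markers in FLT1 and TEK was not tested.

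Genes for proteins that act on ligands outside the cell were called in both directions on Day 16, beside 15.3% (P-DF) and 17.1% (P-IWP2) of all genes called. Without replicate 5 of Day 12 P-IWP2 these shares were 32.4% and 34.8%. Of 6 proteases of IGF binding proteins and their inhibitors, 1 was higher and 2 were lower in each passaged treatment (1 and 4 in P-DF and 1 and 3 in P-IWP2 without replicate 5 of Day 12 P-IWP2). PAPPA2, which cleaves IGFBP3 and IGFBP5, was higher by 1.92 ± 0.56 in P-DF cells and by 1.85 ± 0.56 in P-IWP2. ADAM12, another protease of IGF binding proteins, was at 8.23 and 7.03 FPKM in NP-IWP2, 0.08 and 0.04 in P-DF and 0.04 and 0.05 in P-IWP2 on Day 16. STC2, an inhibitor of PAPPA, was lower on Day 16 with -0.96 ± 0.24 and -1.48 ± 0.25, and in P-IWP2 it was higher on Day 12 by 1.33 ± 0.25. Heparan sulfate proteoglycans help FGF ligands bind their receptors, and of 12 tested, 2 were higher and 2 lower in P-DF and 3 higher and 3 lower in P-IWP2 on Day 16 (3 and 4, then 5 and 3, without that library). GPC3 was at 89.6 and 84.1 FPKM in NP-IWP2, 8.06 and 9.10 in P-DF and 18.8 and 19.7 in P-IWP2 on Day 16 and lower with -3.11 ± 0.25 and -1.90 ± 0.24. HSPG2 was higher by 1.20 ± 0.28 and 1.66 ± 0.28.

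Whether the counting used strand is not stated, so reads of overlapping genes on the opposite strand cannot be told apart from those of a member. Such neighbors with a symbol and on the opposite strand overlap FGF1 (SPRY4-AS1), FGF10 (FGF10-AS1), FGF2 (NUDT6), PDGFD (DDI1), EGFR (EGFR-AS1), IGFBP5 (DIRC3-AS1), IGFBP7 (POLR2B, IGFBP7-AS1 and UBE2CP3), ERBB2 (MIEN1 and PGAP3), FGFR1 (LETM2), IGF1R (SYNM-AS1), NRG1 (RNA5SP262), IGF1 (HELLPAR and LINC02456) and ERBB4 (RNA5SP119, MTND2P23 and MTCO1P46). In the coordinates of the table, which match GRCh38, FGF1 (ENSG00000113578) lies at chr5:142592178-142698070 on the minus strand, FGFR3 (ENSG00000068078) at chr4:1793293-1808872 on the plus strand, PDGFRB (ENSG00000113721) at chr5:150113839-150155872 on the minus strand and HGF (ENSG00000019991) at chr7:81699010-81770438 on the minus strand, and counts were summed over all exons of a gene.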

How the data were processed

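RNA-seq was done on 12 libraries of H1 derived cells, grouped by treatment and day as GEO's labels give them. The authors deposited 1 table of raw read counts per gene for 61806 genes, of which 20417 have no symbol. The deposited FPKM values equal the counts divided by exon length and library total (100% within 0.0051). The submitters' processing notes name cutadapt 1.9.1, HISAT2 2.0.1, HTSeq 0.6.1, DESeq2 and hg38, and strandedness and the sequencing platform are not given in the sources used here. The labels name a low-input cDNA kit and a SMRTbell kit, made for long reads, beside HISAT2, a short-read aligner, so what a count or an exon-length FPKM represents is not settled.

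Counts were tested with edgeR 4.0.16 (quasi-likelihood test, TMM scaling, default filter on low counts, R 4.3.3, limma 3.58.1) in 1 fit of the 6 groups, with Benjamini-Hochberg adjustment over 19505 genes and a threshold of 0.05. The script was tested on simulated data. Library totals ran from 14885589 to 19176239 (median 16452289), and 3 counts, the limit that a count of 0 allows, equal 0.156 to 0.202 CPM, for counting error only. Ratios that rest on 1 to 3 counts have an exact interval at 95%.

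All 38 members are accounted for, with FPKM per library for those called in a comparison or with a group mean of at least 1 FPKM, and at most 3 genes of each other list were named per comparison, by the size of the change among those called. The members and the lists were chosen with earlier results of these data known. Alternatives were DESeq2 size factors, total counts, no filter, DESeq2 1.42.0, only the 2 groups compared, a replicate block and leaving out each library. Promoters were matched by symbol (27 of 38) to RefSeq sequences, the first start listed per gene.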

Additional observations from a re-analysis of the deposited data

Results flagged for a closer look

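The fall of FGFR3 between Day 12 and Day 16 differed between P-DF and NP-IWP2 by a test of the difference itself, with an interaction of -1.27 on the log2 scale (edgeR adjusted p = 0.0208). It was lower in both P-DF libraries of Day 16 than in both NP-IWP2 libraries. The value lay between -1.36 and -1.20 when 1 library was left out, and the call held in 4 of those 12 fits.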

How the results depend on the processing

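No log2 fold change of a called member changed sign in the 1165 values recomputed. Of 67 calls, 14 were lost with total counts, 1 with DESeq2 size factors, 2 with DESeq2, 0 without the filter and 20 of 66 in fits of only the 2 groups, and the cause was not tested. Members called in P-DF on Day 12 (7) were 19 without the filter, 11 by DESeq2 and 22 with 2 groups. For P-IWP2 on Day 12 (5) they were 1 with total counts, 15 without the filter and 0 with 2 groups. For Day 16 they were 23 without the filter and 24 with 2 groups in P-DF (13), and 23 with 2 groups in P-IWP2 (15). Between P-IWP2 and P-DF (0) they were 9 without the filter and 1 with 2 groups. Over time in NP-IWP2 (3) they were 1 with total counts, 15 without the filter, 6 by DESeq2 and 21 with 2 groups, in P-DF (8) 20 without the filter and 23 with 2 groups, and in P-IWP2 (15) 26 without the filter and 0 with 2 groups. The interaction with P-DF (1) gave 10 without the filter and 2 by DESeq2, and that with P-IWP2 (0) gave 1 with total counts, 15 without the filter and 4 by DESeq2. Fits of 2 groups cannot give an interaction.

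Leaving out 1 library gave 0 to 22 members in P-DF and 0 to 23 in P-IWP2 on Day 12, 5 to 24 and 4 to 23 on Day 16, 0 to 5 between P-IWP2 and P-DF, 0 to 18, 2 to 23 and 3 to 31 over time (NP-IWP2, P-DF, P-IWP2), and 0 to 11 and 0 to 25 for the interactions with P-DF and P-IWP2. The highest counts came without a Day 12 P-IWP2 library. Libraries with equal replicate numbers on both days did not deviate together over all genes tested (r = 0.0633 for NP-IWP2, 0.00115 for P-DF and -0.0301 for P-IWP2). With 2 libraries a group, such values cannot settle whether equal numbers are the same culture, which the labels do not state. With the replicate block, 1, 6 and 15 members were called over time (NP-IWP2, P-DF, P-IWP2) and 0 in each interaction, of which 1, 5 and 13 were among those called without it. Of 27 calls, 8 were lost with the block: VEGFC and PDGFA over time in NP-IWP2, FGFR2, NRG1 and IGFBP6 in P-DF, IGF1R and KIT in P-IWP2, and FGFR3 in the interaction. FGF19, IGF1 and IGFBP1 did not pass the filter and have no edgeR value with it.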
